A study of Homo sapiens with 8 samples.

Results

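The 10 genes below, which control the passage from G1 into S phase, were followed across 8 RNA-seq libraries of H9 cells, an established human embryonic stem cell (hESC) line. They were chosen by name: the CDK inhibitors CDKN1A, CDKN1B, CDKN1C and CDKN2C, the D cyclins CCND1, CCND2 and CCND3, their kinase CDK6, and the transcription factors MYC and MYCN. Of these 10 genes, 9 have values in both deposited tables, which hold 19472 and 19551 genes. CDKN2C was not analysed here. In the crowding experiment, 2 libraries labelled small came from low-density cultures and 2 labelled crowded came from high-density cultures, in which cells adhered only to islands of Matrigel and grew until the islands were covered. In the knockdown experiment, 2 libraries labelled Ctrl came from cells with a control hairpin and 2 labelled ETV4 KD from cells with a short hairpin RNA against ETV4, an ETS-family transcription factor. All 8 libraries came from the same line kept on Matrigel in a defined stem cell medium, the crowding libraries carry no labelled genotype, and the labels give no culture density for the knockdown libraries. The labels do not say whether the replicates of a group were separate cultures, which hairpin was used or how long after transduction RNA was taken, so the p-values measure the spread between these samples, which may be technical.

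A cell in G1 commits to DNA replication when cyclin-dependent kinases inactivate the retinoblastoma protein RB1 and thereby release E2F transcription factors. D cyclins bind CDK4 or CDK6 and start this step, and cyclin E with CDK2 completes it. The CIP/KIP inhibitors encoded by CDKN1A (p21), CDKN1B (p27) and CDKN1C (p57) bind cyclin-CDK complexes and restrain the kinases that contain CDK2, and the INK4 inhibitors bind CDK4 and CDK6 alone. MYC and MYCN bind E-box sequences together with MAX and raise the expression of genes for ribosome production and metabolism. In epithelial cultures p27 is the inhibitor best known from contact inhibition, in which crowded cells stop dividing, whereas human embryonic stem cells are known for a short G1 phase.

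To show the regulatory DNA of the members whose transcript levels are described below, the 250 bases before the annotated start site are printed for CDKN1A, CDKN1B, CCND3, CDK6 and MYCN, 5′ to 3′ on the strand of the gene. The sequences are RefSeq's, on GRCh38.p14. Capitals mark matches, on either strand, to 4 motifs: the ETS motif CCGGAA, the E-box CACGTG, the TEAD motif GGAATG, and the E2F motif as TTTGGCGC or TTTCCCGC.
CDKN1A (chr6:36678464-36678713, plus strand): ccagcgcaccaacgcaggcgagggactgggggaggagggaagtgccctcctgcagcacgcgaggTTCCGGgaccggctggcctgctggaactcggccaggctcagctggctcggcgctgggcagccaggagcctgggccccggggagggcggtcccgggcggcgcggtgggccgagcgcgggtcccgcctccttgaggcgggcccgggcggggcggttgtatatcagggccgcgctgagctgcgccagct
CDKN1B (chr12:12717118-12717367, plus strand): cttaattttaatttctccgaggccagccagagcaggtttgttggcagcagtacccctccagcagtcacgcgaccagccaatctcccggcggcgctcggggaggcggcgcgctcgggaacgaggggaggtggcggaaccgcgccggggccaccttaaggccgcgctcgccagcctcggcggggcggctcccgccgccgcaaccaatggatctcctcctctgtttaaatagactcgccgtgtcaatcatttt
CCND3 (chr6:41941809-41942058, minus strand, the second of 3 listed starts): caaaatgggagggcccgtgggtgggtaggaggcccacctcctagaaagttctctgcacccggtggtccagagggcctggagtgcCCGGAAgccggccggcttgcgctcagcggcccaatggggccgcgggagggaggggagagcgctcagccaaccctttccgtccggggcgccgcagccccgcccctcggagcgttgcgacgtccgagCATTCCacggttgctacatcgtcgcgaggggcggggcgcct
CDK6 (chr7:92836574-92836823, minus strand, the first of 2 listed starts): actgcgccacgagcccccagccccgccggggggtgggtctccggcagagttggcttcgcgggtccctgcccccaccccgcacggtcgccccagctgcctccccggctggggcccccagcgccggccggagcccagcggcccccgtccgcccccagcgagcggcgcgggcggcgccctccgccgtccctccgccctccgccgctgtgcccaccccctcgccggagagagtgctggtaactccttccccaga
MYCN (chr2:15940300-15940549, plus strand): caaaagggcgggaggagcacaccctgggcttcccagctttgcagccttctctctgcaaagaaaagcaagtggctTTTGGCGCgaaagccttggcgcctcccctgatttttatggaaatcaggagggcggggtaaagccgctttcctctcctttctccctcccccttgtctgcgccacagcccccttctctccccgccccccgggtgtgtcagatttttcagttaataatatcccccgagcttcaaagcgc
The CDKN1A window holds 1 ETS match, on the minus strand, whose first base lies 186 bases before the start. The CCND3 window holds 1 ETS match, on the plus strand, 166 bases before the start, and 1 TEAD match, on the minus strand, 41 bases before it. The MYCN window holds 1 E2F match, 176 bases before the start. The CDKN1B window and the CDK6 window hold none of the 4 motifs in these letters, nor do the other 2 windows of CCND3 and the second window of CDK6, which are not printed, and no match overlaps another. Over all 35116 RefSeq promoter windows of this length, 14.5% hold the ETS motif, 6.34% the E-box, 11.9% the TEAD motif and 1.93% the E2F motif. A GC box, searched as GGGCGG on both strands and not marked here, matched 4 times for CDKN1A, 3 times for CDK6 and for MYCN, 2 times for CCND3, and 1 time for CDKN1B, and occurs in 42.6% of all windows. These matches describe letters and do not show binding.

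The 8 libraries held 50359703 to 62410168 counted reads, and replicates correlated at 0.992 to 0.994 in log2 CPM over genes. Replicates differed by more than sampling noise, with a chi-square per degree of freedom from 5.51 in the low-density libraries to 21.9 in the ETV4 KD libraries. ETV4 was 90.8 and 95.1 FPKM (a level scaled to transcript length and to library size) in the Ctrl libraries and 45.6 and 40.9 FPKM in the ETV4 KD libraries, a log2 fold change of -1.15, so the targeted transcript remained at 0.449 of its control level. All 10 pluripotency markers were measured, with summed levels of 3501 to 3671 FPKM in the crowding experiment and 2861 to 3144 FPKM in the knockdown experiment. With crowding none of the 10 was called, but 7 had an adjusted p below 0.05 by edgeR. They moved both ways, 4 above 0 and 6 below, from SOX2 (log2 fold change 0.41) to NANOG (-0.46). After ETV4 KD, 1 of these 10 markers was higher and 2 were lower past the thresholds used below. Of 8 mesendoderm and 8 neuroectoderm markers, 4 to 6 had a row in a table, and their sums were at most 1.24 and 0.191 FPKM. At these low levels FOXA2 (log2 fold change -2.85) and LHX2 (-1.55) were called lower with crowding and SOX1 (2.27) higher. After ETV4 KD 1 mesendoderm marker was called higher and no neuroectoderm marker was called. Of 7 fibroblast markers, 4 and 5 had a row. Their sum, mostly COL1A1, lay between 38.5 and 39.2 FPKM in the low-density libraries, 30.9 and 31.0 in the high-density ones, 37.3 and 39.4 in Ctrl and 53.3 and 57.7 in ETV4 KD. The markers did not move as one. With crowding 2 of the 4 tested were called, both lower, PDGFRB (log2 fold change -1.58) and POSTN (-1.71), and after ETV4 KD COL1A1 was called higher (1.00) and PDGFRB lower (-0.54), with 3 of the 4 tested below 0. Of 7 trophoblast and amnion markers, 3 and 2 had a row, with sums of 2.33 to 2.41 FPKM in the low-density libraries, 3.28 to 3.32 in the high-density ones, 2.39 to 3.31 in Ctrl and 2.19 to 2.51 in ETV4 KD. The part of these marker differences in the results below was not tested. The tables list only genes with at least 1 read in each of their 4 libraries.

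Crowding split the CIP/KIP inhibitors, with CDKN1A lower and CDKN1B and CDKN1C higher at high density. CDKN1A was 10.7 and 10.4 FPKM at low density and 5.51 and 7.70 FPKM at high density, so both crowded libraries lay below both low-density ones. It fell by 0.73 on the log2 scale (SE 0.12, n = 2 per group, edgeR's quasi-likelihood test, adjusted p = 7.19e-04). The spread between its crowded libraries, 6.60 ± 1.55 FPKM (SD, n = 2), was wider than that between the low-density libraries, 10.5 ± 0.196 FPKM. CDKN1B was 8.04 FPKM in both low-density libraries and 13.9 and 14.0 FPKM in the high-density libraries. The replicates of this gene nearly coincided, and it rose by 1.67-fold (log2 fold change 0.74, SE 0.07, adjusted p = 9.12e-08 by edgeR). CDKN1C, an imprinted gene, was 2.04 and 2.56 FPKM at low density and 5.52 and 5.11 FPKM at high density. It rose by 2.27-fold (log2 fold change 1.18, SE 0.14, adjusted p = 1.00e-06 by edgeR), the largest change among the 9 genes. In bulk RNA, fewer cells of a type and less RNA per cell cannot be told apart.

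The D cyclins and CDK6 also moved apart with density. CDK6, a catalytic partner of the D cyclins, was 3.36 and 3.23 FPKM at low density and 5.06 and 5.09 FPKM at high density, and rose by 1.48-fold (log2 fold change 0.57, SE 0.06, adjusted p = 4.71e-07 by edgeR). CCND1 was the most abundant D cyclin in both states, at 36.1 and 37.6 FPKM and then 50.4 and 50.3 FPKM. Its log2 fold change of 0.39 (SE 0.06, adjusted p = 1.24e-05 by edgeR) did not reach the threshold of 0.5 used here to call a change, although the groups did not overlap. CCND2 was 18.0 and 18.2 FPKM at low density and 12.2 and 14.8 FPKM at high density, with a log2 fold change of -0.48 (SE 0.07, adjusted p = 3.61e-05 by edgeR). CCND3 was 9.27 and 9.99 FPKM and then 7.33 and 8.33 FPKM, with a log2 fold change of -0.35 (SE 0.09, adjusted p = 0.00261 by edgeR). For these cyclins the direction of CCND1 was opposite to that of CCND2 and CCND3 in every pair of libraries across the groups.

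Both MYC genes were lower at high density. MYC was 17.1 and 18.2 FPKM at low density and 13.8 and 11.7 FPKM at high density, and fell by 0.54 on the log2 scale (SE 0.07, adjusted p = 9.89e-06 by edgeR). Its fold lay near the threshold: MYC was no longer called without the second low-density library (log2 fold change -0.50) or without the second high-density library (-0.42), nor on the FPKM scale with limma (-0.46 with a pseudocount of 0.5). MYCN, the family member best known from neural and embryonic cells, was 47.9 and 48.6 FPKM at low density and 39.0 and 35.1 FPKM at high density. Its log2 fold change was -0.43 (SE 0.06, adjusted p = 1.27e-05 by edgeR), short of the threshold.

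**Figure D1:**
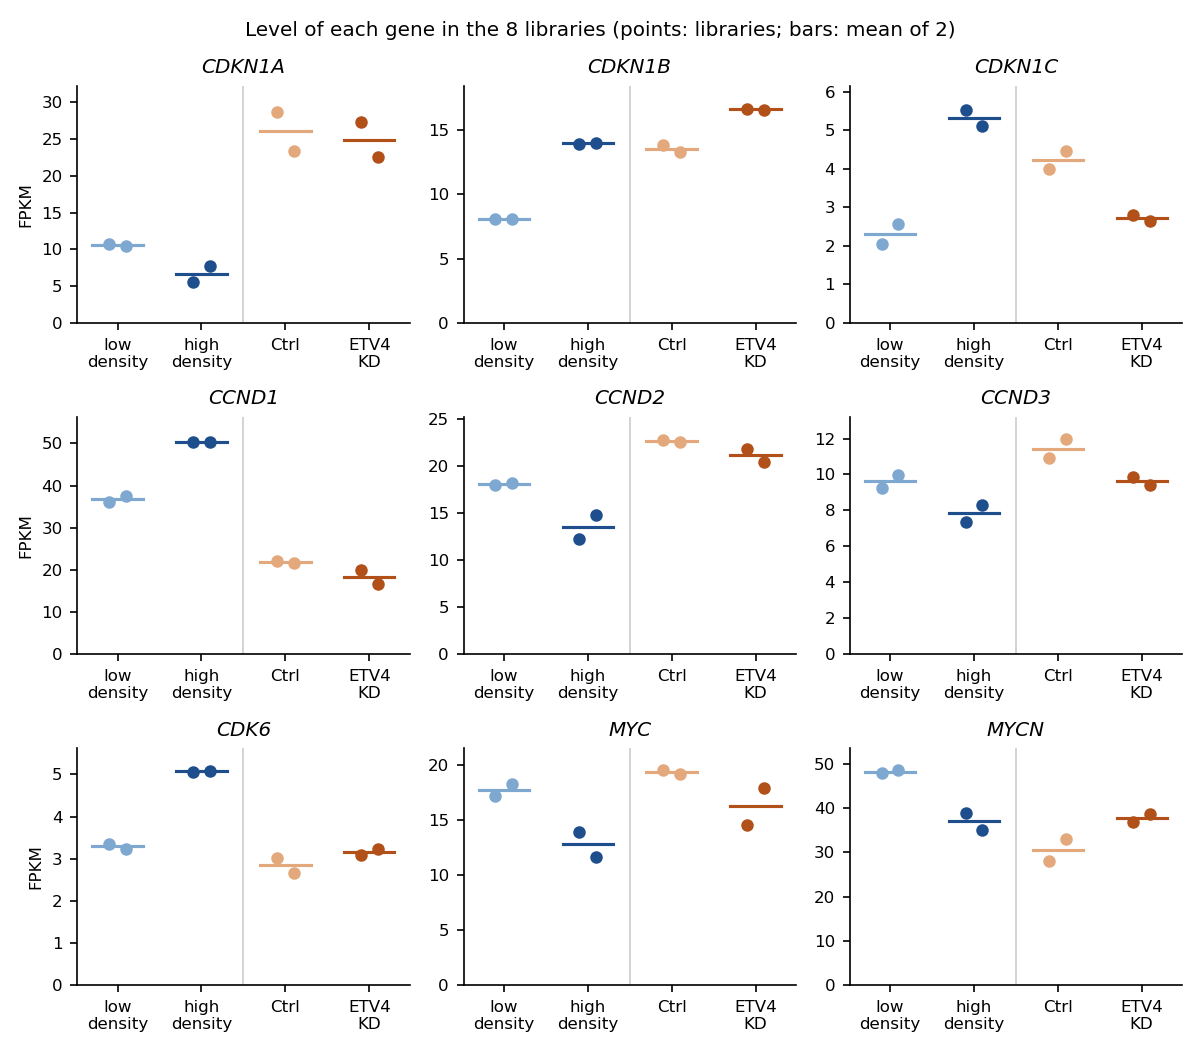
Levels of the 9 measured genes in FPKM (vertical axes from 0, scaled per gene) in the 2 libraries of each of 4 groups. Points are libraries and bars are the mean of 2. The vertical line separates the crowding experiment from the knockdown experiment, which share no library. CDKN1B, CDKN1C, CCND1 and CDK6 lie higher at high density and the other 5 genes lower, and in the knockdown experiment only CDKN1A overlaps between Ctrl and ETV4 KD. Over all genes tested, the groups do not overlap for 70.2% with crowding and 63.3% after ETV4 KD.

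In total 5 of the 9 genes passed both thresholds (an adjusted p under 0.05, and more than 0.5 in absolute log2 fold change) with crowding, 3 higher and 2 lower. Over all 17672 genes tested, 10.7% were called higher and 5.47% lower. All 9 had an adjusted p below 0.05, against 39.7% of all genes tested. The FPKM of the 2 groups did not overlap for any of the 9, which held for 70.2% of all genes tested. CDKN1A, CDKN1B, CDKN1C and CDK6 were called whichever library was left out. CCND2 and MYCN passed both thresholds when 1 high-density library was left out, the second for CCND2 (log2 fold change -0.61) and the first for MYCN (-0.51).

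After ETV4 KD, 1 of the 9 genes was called. CDKN1C was 4.00 and 4.46 FPKM in the Ctrl libraries and 2.80 and 2.65 FPKM in the ETV4 KD libraries, and fell by 0.59 on the log2 scale (SE 0.15, n = 2 per group, adjusted p = 0.0279 by edgeR). It had 272 to 454 reads per library, the fewest of the 9 genes. The call was lost without the first Ctrl library (log2 fold change -0.66, adjusted p = 0.0862 by edgeR), without the second (-0.51, adjusted p = 0.205 by edgeR), and with limma on log2(FPKM + 1) (-0.49). Over all 17879 genes tested, 5.88% were called higher and 7.10% lower, so 1 call in 9 genes stood near the share among all genes.

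The other CIP/KIP inhibitors were not called after ETV4 KD. CDKN1A was 28.6 and 23.4 FPKM in Ctrl and 27.3 and 22.5 FPKM in ETV4 KD, with groups that overlapped (log2 fold change -0.06, SE 0.12, adjusted p = 0.739 by edgeR). CDKN1B was 13.8 and 13.3 FPKM in Ctrl and 16.6 FPKM in both ETV4 KD libraries (log2 fold change 0.30, SE 0.08, adjusted p = 0.0399 by edgeR), past the threshold on p and short of that on fold.

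None of the D cyclins nor CDK6 passed either threshold after ETV4 KD. CCND1 was 22.0 and 21.6 FPKM in Ctrl and 19.9 and 16.7 FPKM in ETV4 KD (log2 fold change -0.25, SE 0.09, adjusted p = 0.0724 by edgeR). The log2 fold change was -0.10 for CCND2, at 20.4 to 22.8 FPKM over the 4 libraries, -0.25 for CCND3, at 9.42 to 12.0 FPKM, and 0.16 for CDK6, at 2.65 to 3.24 FPKM, with adjusted p-values of 0.341, 0.108 and 0.283 by edgeR. MYCN was 28.0 and 32.9 FPKM in Ctrl and 36.9 and 38.6 FPKM in ETV4 KD (log2 fold change 0.32, SE 0.09, adjusted p = 0.0394 by edgeR). MYC was 19.5 and 19.2 FPKM in Ctrl and 14.5 and 17.9 FPKM in ETV4 KD (log2 fold change -0.25, SE 0.12, adjusted p = 0.160 by edgeR). The ETV4 KD libraries differed for this gene, and its log2 fold change was -0.08 without the first of them and -0.44 without the second (adjusted p = 0.00397 by edgeR). Thus 3 of 9 genes, CDKN1B, CDKN1C and MYCN, had an adjusted p below 0.05, against 21.5% of all genes tested, and 8 of 9 had groups that did not overlap, against 63.3%. The count of 3 was 0 without the first Ctrl library, 1 without the second, and 2 to 4 without an ETV4 KD library.

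ETV4 was also lower at high density, at 73.2 and 72.6 FPKM and then 54.2 and 53.9 FPKM (log2 fold change -0.49, adjusted p = 9.42e-07 by edgeR, short of the threshold on fold), and the responses to crowding and to ETV4 KD were compared directly. The experiments share no library, and the difference of the log2 fold changes (crowding minus ETV4 KD) was tested with edgeR's quasi-likelihood test on all 8 libraries and 17790 genes. CDKN1C differed most, by 1.77 (SE 0.20, adjusted p = 5.83e-05 by edgeR), since it rose with crowding and fell after ETV4 KD. MYCN differed by -0.75 (SE 0.12, adjusted p = 3.79e-04 by edgeR), being lower with crowding and higher after ETV4 KD. CCND1 differed by 0.64 (SE 0.10, adjusted p = 4.05e-04 by edgeR), with the directions reversed. Neither MYCN nor CCND1 was called in either experiment alone, and a fall of CCND1 after ETV4 KD was not detected (adjusted p = 0.0724 by edgeR). This depended on the model. With a block for the replicate number, the adjusted p of CCND1 was 0.00146 by edgeR, at a log2 fold change of -0.25. Over the libraries left out, its log2 fold change after ETV4 KD ran from -0.35 to -0.16. CDKN1A differed by -0.67 (SE 0.20, adjusted p = 0.0188 by edgeR), and this call was lost when any 1 of 5 libraries was left out: the first low-density (adjusted p = 0.0663), the first high-density (0.0670), the second Ctrl (0.0664), the first ETV4 KD (0.129) or the second ETV4 KD library (0.0600). The other 5 genes were not called.

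CDKN1B differed by 0.43 (adjusted p = 0.00531 by edgeR), CDK6 by 0.40 (adjusted p = 0.0166) and CCND2 by -0.39 (adjusted p = 0.0152), with the fold short of the threshold. For MYC the difference was -0.30 (SE 0.15, adjusted p = 0.149 by edgeR) and for CCND3 it was -0.11 (SE 0.13, adjusted p = 0.527 by edgeR). For these genes a difference between the responses was not detected with 2 libraries in each group, which does not show that they were equal. For MYC this rested on single libraries, since the difference was -0.47 without the first ETV4 KD library (adjusted p = 0.00245 by edgeR), -0.10 without the second and -0.18 without the second high-density library. In total 4 of 9 genes were called, 2 in each direction, against 15.0% of all genes called higher and 12.5% called lower, and 7 of 9 had an adjusted p below 0.05, against 38.5%.

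**Figure D2:**
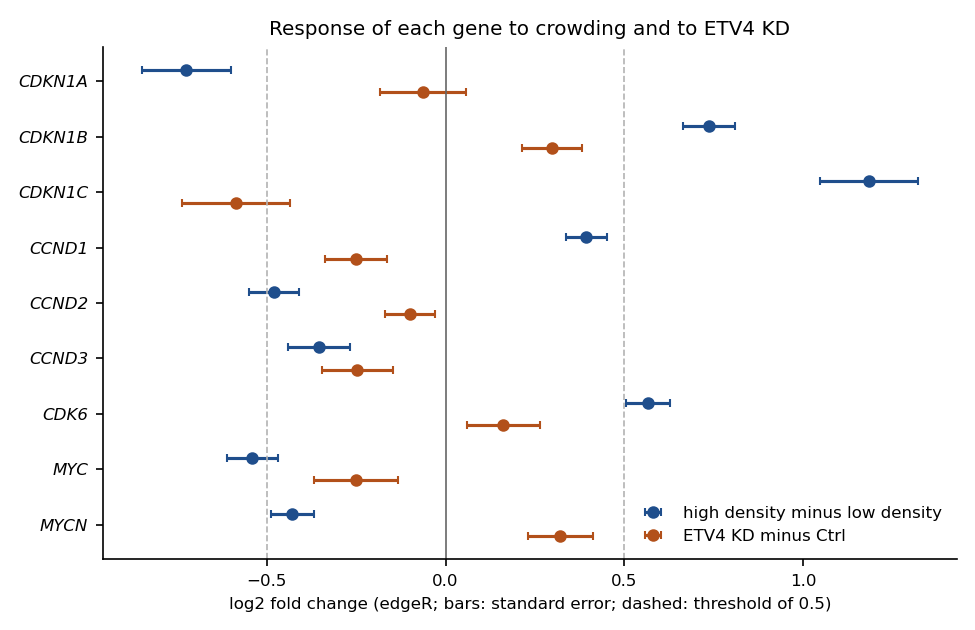
The log2 fold change of each of the 9 genes (horizontal axis) with crowding, blue, and after ETV4 KD, orange, with bars for the standard error from edgeR and dashed lines at the fold threshold of 0.5. CDKN1C lies at 1.18 with crowding and at -0.59 after ETV4 KD, and CCND1 and MYCN also lie on opposite sides of 0 in the 2 experiments.

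Because FPKM is scaled to transcript length, the make-up of each family could be set out per library. CCND1 made up 57.0% and 57.1% of the summed D cyclin level at low density and 72.0% and 68.5% at high density, while the sum itself went from 63.3 and 65.9 FPKM to 70.0 and 73.4 FPKM. The share of CCND2 was 28.4% and 27.7%, then 17.5% and 20.1%. In the knockdown experiment CCND2 held the largest share in each library, at 40.2% to 41.0% in Ctrl and 42.3% to 43.9% in ETV4 KD, with CCND1 at 38.5% to 39.5% and 35.9% to 38.6%. The leading D cyclin thus differed between the low-density and Ctrl libraries, which belong to separate experiments and were not compared by a test.

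Among the CIP/KIP inhibitors, CDKN1A held 51.4% and 49.5% of the summed level at low density and 22.1% and 28.7% at high density. The ratio of CDKN1B to CDKN1A was 0.753 and 0.773 at low density and 2.52 and 1.82 at high density, so the leading inhibitor transcript changed from CDKN1A to CDKN1B. The summed level of the 3 inhibitors was 20.8 and 21.0 FPKM at low density and 24.9 and 26.8 FPKM at high density. In the knockdown experiment CDKN1A led in every library, with 53.9% to 61.7% of a sum of 41.1 to 46.7 FPKM. CDKN1A was 26.0 ± 3.69 FPKM in Ctrl (SD, n = 2) beside 10.5 FPKM at low density, values from separate experiments that were not compared by a test.

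MYCN exceeded MYC in all 8 libraries. The ratio of MYCN to MYC was 2.80 and 2.67 at low density and 2.82 and 3.01 at high density, since both were lower there, and their summed level went from 65.0 and 66.8 FPKM to 52.8 and 46.7 FPKM. After ETV4 KD the ratio was 2.54 and 2.16, above the 1.43 and 1.72 of the Ctrl libraries, while the sums of 51.4 and 56.5 FPKM overlapped with the 47.5 and 52.1 FPKM in Ctrl.

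**Figure D3:**
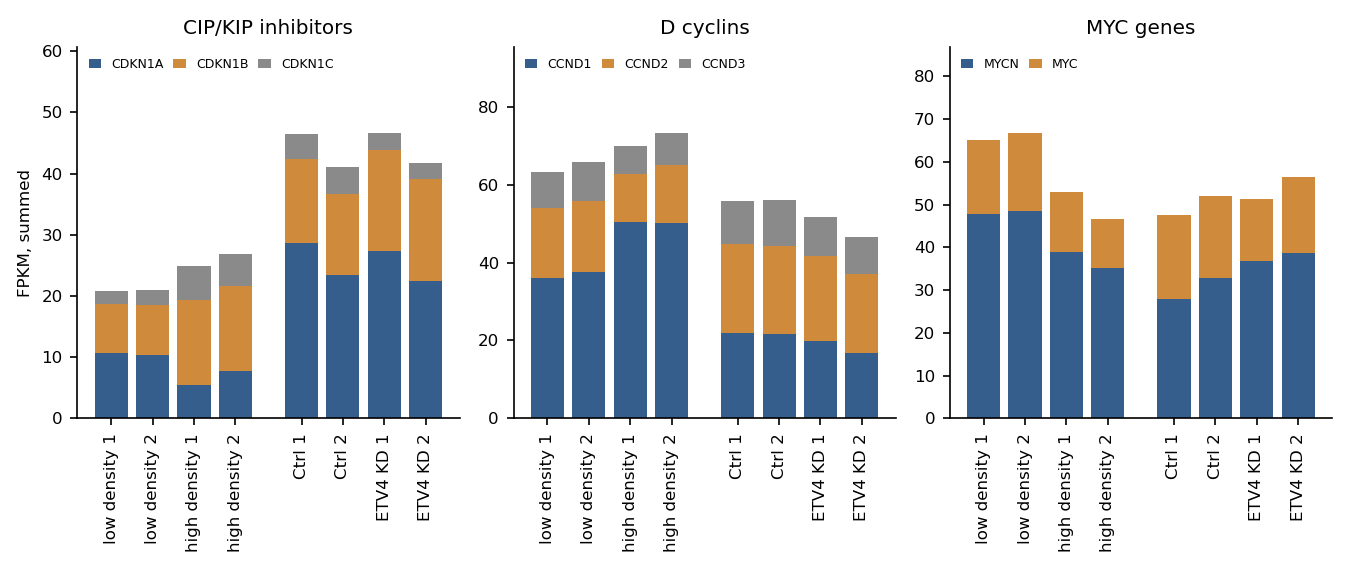
Stacked bars of FPKM (vertical axes from 0) in each of the 8 libraries for the CIP/KIP inhibitors, the D cyclins and the MYC genes, with a gap between the crowding and the knockdown experiment. The CDKN1A segment shrinks and the CDKN1B and CDKN1C segments grow at high density, CCND1 takes 68.5% to 72.0% of the D cyclins there, and the MYC genes sum to 46.7 to 52.8 FPKM against 65.0 to 66.8 FPKM at low density.

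In order of mean FPKM, MYCN (48.2), CCND1 (36.8), CCND2 (18.1), MYC (17.7), CDKN1A (10.5), CCND3 (9.63), CDKN1B (8.04), CDK6 (3.29) and CDKN1C (2.30) followed one another at low density, and only CCND2 and MYC overlapped as neighbours. At high density CCND1 (50.4) stood above MYCN (37.0), and CDKN1B (13.9), CCND2 (13.5) and MYC (12.7) followed with overlapping neighbours. CCND3 (7.83), CDKN1A (6.60) and CDKN1C (5.32) came next, again each overlapping with its neighbour, and CDK6 (5.07) was the lowest. In Ctrl and ETV4 KD alike MYCN, CDKN1A, CCND2 and CCND1 were the first 4 genes, and in Ctrl the ranges of MYCN and CDKN1A overlapped. CDKN1B moved from below MYC in Ctrl to a level overlapping with MYC in ETV4 KD, and CDKN1C moved from above CDK6 to below it.

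The other genes of the G1 pathway were counted in lists, beside the 10.7% and 5.47% of all genes called higher and lower with crowding. Of 12 G1 kinases, cyclins E, INK4 genes and their regulators, 1 was called, CCNE2, a cyclin E, which fell from 1.74 and 1.99 FPKM to 1.17 and 1.02 FPKM (log2 fold change -0.82, adjusted p = 5.86e-04 by edgeR). Of 13 RB and E2F genes 1 was called, TFDP1, the dimer partner of E2Fs, which fell by 0.58 on the log2 scale. Of 20 S phase genes 2 were called lower, RRM2, a subunit of ribonucleotide reductase (log2 fold change -0.62), and CDC6, a replication licensing factor (-0.50). The median of this list was -0.18 and 18 of its 20 genes lay below 0, beside a median of 0.00 over all genes tested. Of 20 G2 and mitosis genes 1 was called higher, BUB1, a spindle checkpoint kinase, at 39.5 and 39.1 FPKM and then 68.2 and 65.7 FPKM (log2 fold change 0.71), and the list median was 0.01.

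Of 19 genes that MYC proteins are known to activate, 6 were called lower with crowding and none higher. The largest change was in ODC1, the first enzyme of polyamine synthesis, at 69.8 and 68.5 FPKM and then 23.4 and 19.5 FPKM (log2 fold change -1.75, SE 0.07, adjusted p = 7.08e-12 by edgeR). BOP1, RRP12 and RRP9, which act in ribosome assembly, fell by 0.57, 0.54 and 0.53 on the log2 scale. The median of the list was -0.26 and 17 of its 19 genes lay below 0. Of 12 genes of the MYC network, 2 were called higher, MLXIPL, a glucose-responsive factor (log2 fold change 1.28), and MXI1, a MAX partner that opposes MYC (0.56). Of 21 p53 target genes, a group to which CDKN1A also belongs, 3 were called lower, PLK3 (-0.77), TP53I3 (-0.67) and PHLDA3 (-0.67), with a list median of -0.20.

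After ETV4 KD the same lists were counted, beside 5.88% and 7.10% of all genes called higher and lower. Of the 21 p53 targets 6 were called higher and none lower, with a median of 0.29 beside 0.00 over all genes tested. FAS, a death receptor, was 1.11 FPKM in both Ctrl libraries and 2.21 and 2.42 FPKM in ETV4 KD (log2 fold change 1.06, adjusted p = 0.00357 by edgeR), and BTG2, an antiproliferative factor, SESN2, a stress-induced inhibitor of mTORC1 signalling, and GDF15, a stress-induced cytokine, rose by 1.04, 1.00 and 0.93 on the log2 scale. CDKN1A, the member of the same pathway followed here, had a log2 fold change of -0.06. Of the 19 MYC targets 2 were called higher, ODC1 and PPAN (log2 fold change 1.43 and 0.67), and 1 lower, the mitochondrial co-chaperonin HSPE1 (-0.85). ODC1 was 24.3 and 25.5 FPKM in Ctrl and 56.9 and 77.5 FPKM in ETV4 KD, opposite to its direction with crowding, and the difference between the responses was -3.18 (SE 0.20, adjusted p = 4.98e-06 by edgeR).

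Among G1 genes after ETV4 KD, of 11 tested, CDK4, the other partner of the D cyclins, was called higher, at 71.4 and 77.0 FPKM and then 97.1 and 112.8 FPKM (log2 fold change 0.51), and CCNE2 lower (-0.74). The CCNE2 call was at a low level, 0.875 and 0.782 FPKM and then 0.505 and 0.483 FPKM, and near the threshold on p (adjusted p = 0.0467 by edgeR). RB1 itself was the 1 of 13 RB and E2F genes called, at 5.41 and 5.11 FPKM and then 3.68 and 3.30 FPKM (log2 fold change -0.59, adjusted p = 0.00674 by edgeR). Of 20 S phase genes 1 was called, MCM6, a subunit of the replicative helicase, which fell by 1.29 on the log2 scale, with a list median of 0.14. Of 20 G2 and mitosis genes 2 were called lower, KIF20A (-0.56) and MKI67 (-0.52), and 19 of the 20 lay below 0, with a median of -0.18. In the MYC network MXD1, another MAX partner that opposes MYC, was called higher (0.76) and MYCL, the remaining MYC family gene, lower, from 7.25 and 6.56 FPKM to 4.97 and 3.97 FPKM (-0.65).

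**Figure D4:**
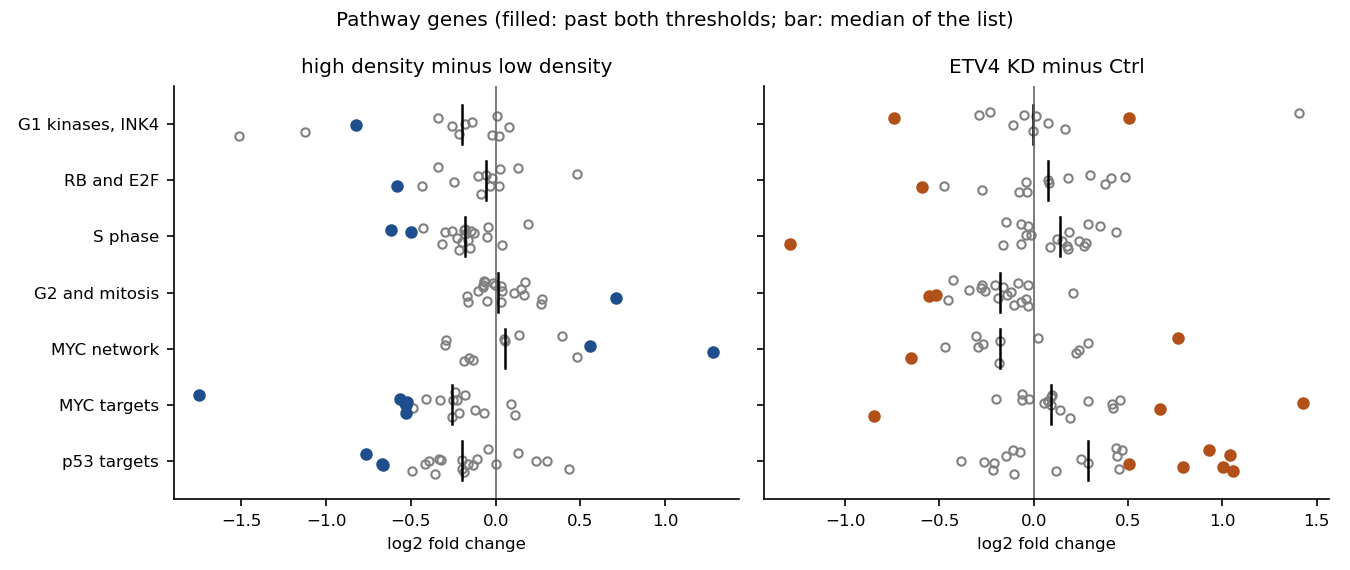
The log2 fold change (horizontal axis) of each tested gene in 7 pathway lists (rows) with crowding, left, and after ETV4 KD, right; filled points passed both thresholds, open points did not, vertical ticks are list medians and the vertical position within a row is random. With crowding the median of the MYC targets is -0.26 and that of the p53 targets -0.20, and after ETV4 KD these medians are 0.09 and 0.29.

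For the 5 genes called with crowding, the nearest profiles were sought among 7851 other genes, by Pearson's r of log2 CPM centred within each experiment over the 8 libraries. ETV5, a close paralogue of ETV4, had the profile nearest to CDKN1A (r = 0.9999), with a log2 fold change of -0.66 with crowding and -0.06 after ETV4 KD, beside -0.73 and -0.06 for CDKN1A. MTERF3 (0.993) and SMAP1 (0.986) came next. CDKN1B was followed most closely by TMEM64 (0.995), SENP2 (0.995) and ACTN3 (0.994), and CDKN1C by C4orf46 (0.989), CASP9 (0.988) and KIAA1522 (0.988). For CDK6 they were VPS33B (0.986), TOB1 (0.986) and TFAP2C (0.980), and for MYC they were RPP21 (0.993), SMIM11A (0.989) and MRPS26 (0.985). Over 8 libraries in 4 groups, high coefficients are found for many genes in so wide a search, and they are given as a description.

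Of the 9 genes, 8 share part of their span with a gene on the opposite strand in GENCODE's annotation on GRCh37, and the sources do not state if the counting used strand. CDKN1B (chromosome 12, 12838432 to 12875303, plus strand) overlaps with GPR19 in this annotation. All reads of GPR19 came to 641 to 971 per library in the crowding experiment, 38.4% to 55.0% of the reads of CDKN1B. Reads in the shared stretch were not counted apart, for GPR19 or the genes below, and the gene models used for counting were not compared. GPR19 had a log2 fold change of 0.30 (adjusted p = 0.0183 by edgeR) beside 0.74 for CDKN1B. CCND1 (chromosome 11, 69455924 to 69469242, plus strand) overlaps with LTO1. In the crowding experiment LTO1 had 5.17% to 8.60% of the reads of CCND1 and a log2 fold change of -0.29, opposite in sign to that of CCND1. In the knockdown experiment the read shares were 28.4% to 34.8% for GPR19 and 13.3% to 22.9% for LTO1. CCND2-AS1, CDK6-AS1, CASC11 and MYCNOS had at most 1.49% of the reads of CCND2, CDK6, MYC and MYCN in any library where they were listed. CDKN1A (chromosome 6, 36644237 to 36655114, plus strand) overlaps with DINOL, which was not analysed here. CDKN1C (chromosome 11, 2904443 to 2907005, minus strand), the gene that differed most between the 2 experiments, overlaps with no other annotated gene. Of the other genes, CCND2 lies on chromosome 12 (4378937 to 4414519, plus strand), CCND3 on chromosome 6 (41902672 to 42018095, minus strand), CDK6 on chromosome 7 (92234235 to 92465887, minus strand) and MYCN on chromosome 2 (16080672 to 16087129, plus strand).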

How the data were processed

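RNA of H9 hESCs was measured in 8 libraries from 2 experiments. The authors made poly-A libraries with a stranded kit, sequenced them as read pairs, used Trimmomatic for trimming and HISAT2 2.1.0 for mapping to GRCh37, and assembled known transcripts with StringTie 2.1.3b. They deposited a table per experiment with raw read counts per gene and with FPKM values per gene, both calculated per sample. The deposited tables also hold the authors' own fold changes and p-values and 16 further per-sample columns, none of which were used.

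Groups were taken from the sample titles. The counts were tested within each table with the robust quasi-likelihood test of edgeR 4.0.16 in R 4.3.3, after filterByExpr and TMM scaling, and adjusted by Benjamini-Hochberg over the 17672 or 17879 genes tested. A gene was called where the adjusted p was under 0.05 and the log2 fold change exceeded 0.5 in size. The difference between the responses was a contrast of 4 group means over 8 libraries. The SE of a log2 fold change is its size over the root of edgeR's F statistic. The tests were tried on simulated counts first, with known changes all beyond the fold threshold and a dispersion shared by all genes. That trial does not bear on the calls made here. Levels and family shares are the deposited FPKM. At depths of 50359703 to 62410168 reads, counting error (1 over the root of the count) was at most 3.68% per library for 8 of the genes and 3.87% to 6.87% for CDKN1C, beside a biological coefficient of variation of 6.83% with crowding and 9.93% after ETV4 KD.

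The genes, the pathway lists and the tests were chosen with earlier results of these data known. All 10 genes were named, as were, per pathway list, all called genes where they are 4 or fewer and otherwise the 4 largest changes with a mean of at least 1 FPKM in either group, the 3 nearest profiles of each called gene (mean of at least 5 FPKM in both tables), and ETV4. GPR19, LTO1 and the other overlapping genes were named for their position. Positions are GENCODE's on GRCh37, where 18598 of 20344 gene symbols matched, and promoters are RefSeq's on GRCh38.p14, where 6 of the 10 genes have an entry and CDKN1C, CCND1, CCND2 and MYC were not matched.

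The alternatives were DESeq2 1.42.0 size factors and its Wald test, low counts left in, at least 10 counts required per library, a block for the replicate number, limma 3.58.1 on log2(FPKM + 0.5) with a minimum mean of 0.5 FPKM, pseudocounts of 0.1 and 1, all genes without that minimum, other fold thresholds, and each library left out in turn.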

Additional observations from a re-analysis of the deposited data

How the results depend on the processing

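Of the recomputed counts of called genes, 57 stayed within 1.5 times their value and 18 did not. Single genes kept their direction and their call, on both thresholds together, in 332 of 351 recomputed values, lost a call in 14 and gained one in 3, and in 23 of the 332 the adjusted p alone crossed 0.05. In 2 the direction reversed: CDKN1A after ETV4 KD was 0.10 without the first Ctrl library and 0.04 without the second ETV4 KD library, against -0.06 (-0.21 to 0.10 over the libraries left out). Without a minimum fold, 9 of the genes followed here were called with crowding, 3 after ETV4 KD and 7 for the difference between the responses. Of the pathway genes, 63 were then called with crowding and 39 after ETV4 KD. The shares of all genes tested without a minimum fold were 39.7% with crowding, 21.5% after ETV4 KD and 38.5% for the difference. At the main thresholds 16.1% of all genes tested were called with crowding and 13% after ETV4 KD. With an absolute log2 fold change over 1, the counts of followed genes were 1, 0 and 1, and those of pathway genes 2 and 5. The share of all genes past that stricter fold was not counted. Limma on log2(FPKM + 1) called 8 pathway genes with crowding against 16, 11 after ETV4 KD against 17, and 0 of the followed genes after ETV4 KD against 1, and limma on all genes with a pseudocount of 0.5 also called 11 pathway genes after ETV4 KD. With 1 library left out, 9 to 23 pathway genes were called with crowding, the fewest without the second crowded library, and 12 to 27 after ETV4 KD, the most without the first ETV4 KD library. Of the followed genes 0 to 1 were then called after ETV4 KD. In these fits the lone library of a group is assumed to vary like the others.

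With the replicate number as a block, 5 of the followed genes were called with crowding, 1 after ETV4 KD and 4 for the difference, as without it, and 16 and 18 pathway genes. The genes followed with an adjusted p below 0.05 after ETV4 KD went from 3 to 6 with the block, and to 2 with low counts left in and 1 with limma on all genes. Deviations of same-numbered libraries from their group means correlated at -0.04 with crowding and 0.09 after ETV4 KD. These low values over the genes tested do not settle whether same-numbered libraries were handled together, and the labels do not say.

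With 2 libraries per group, p-values rest on the dispersion shared across genes, and folds near 0.5 can fall on either side of the threshold, as for MYC, CCND2 and MYCN.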
